A study of Mus musculus with 10 samples.

Results

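Mbp, Apoe and Gamt are genes that glia, the supporting cells of the brain, are known to use, and each was read here by 1 probe. The probes were found by their names, which begin with A_51_P, and by the RefSeq accession printed beside them, which gave 3 probes among the 46 of that family with a gene name and among 60823 noncontrol probes in all. RNA came from extracellular vesicles, small membrane sacs shed by cells, isolated by ultracentrifugation from the whole brains of adult female C57BL/6J mice. The room air group (5 arrays, numbered 1, 2, 3, 5 and 9 by the sample titles) breathed room air, and the ethanol vapor group (5 arrays, numbered 4, 6, 7, 8 and 10) went through chronic intermittent ethanol vapor. Both exposures lasted 4 weeks, with 5 exposure days per week and 8 h per exposure day, and brains were collected straight after the last day. No genotype, transgene or second agent is given for either group, and the labels do not say whether a sample came from 1 animal or from a pool, so the tests weigh only the spread among these samples, part of which may be technical.

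Myelin is the lipid-rich sheath that oligodendrocytes wrap around axons, and astrocytes supply the surrounding tissue with lipids and metabolites. Mbp encodes myelin basic protein, which holds the cytoplasmic faces of the myelin membrane together, and its messenger RNA is carried out into the processes of oligodendrocytes before it is translated. Longer transcripts of the same locus, called golli, are also made in neurons and immune cells. Apoe encodes apolipoprotein E, the main lipid carrier of the brain, which astrocytes secrete and microglia can also make. Gamt encodes guanidinoacetate N-methyltransferase, the enzyme that completes creatine synthesis with a methyl group from S-adenosylmethionine. In the brain it is found mainly in glia, from which creatine can pass to neurons. The study asked how the RNA cargo of brain vesicles differs after chronic ethanol exposure.

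The file headers give a scan image identifier that the arrays share in sets. Scan 1 holds room air arrays 1, 2 and 3 and ethanol array 4, and scan 2 holds room air arrays 5 and 9 and ethanol arrays 6, 7, 8 and 10. Between 62.1% and 74.5% of noncontrol spots were well above background on an array of scan 1, and between 75.9% and 87.9% on scan 2. The median log2 intensity of noncontrol spots divided too, with 5.72 to 6.32 on scan 1 and 6.57 to 7.12 on scan 2. The 75th percentiles of the arrays overlapped between the scans. Of 49356 tested probes, 37136 (75.2%) differed between the scans at an adjusted p under 0.05 in limma, and for 62% the levels of the scans did not overlap. The groups are unevenly spread over the scans, so each ethanol difference is given over all arrays, with the scan as a block, and within each scan. Levels below are log2 processed intensities minus the array's own 75th percentile, each the mean of 10 printed spots. Differences are ethanol vapor minus room air. Levels of different probes are not compared as RNA amounts, since probes differ in how strongly they bind.

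All 3 probes gave a clear signal. Each was printed at 10 spots, and 300 of 300 spots over the 10 arrays were well above background, with 0 saturated and 0 marked as non-uniform. The dimmest of these spots had an intensity of 319, above the brightest structural negative control spot on any array (162). For each probe and array, the median raw brightness of the 10 spots was between 18.6 and 91.2 times their median local background. A signal on all arrays was common, as 34272 of 60823 noncontrol probes were well above background on all 10 arrays. That count judged a probe by a set share of its spots and not by each spot. The Mbp probe carries the accession NM_010777, 1 of 8 curated RefSeq transcripts of the gene. The Apoe probe carries NM_009696, 1 of 4, and the Gamt probe carries NM_010255, 1 of 2. Which of these transcripts, golli forms included, a probe binds was not tested. In RNA from a mixture of vesicles, fewer vesicles that carry a transcript and fewer copies in each cannot be told apart.

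The label of glia-enriched genes was hardly set against other markers, because gene names were looked up only for the A_51_P probes. Other probes of the arrays were not searched for markers, nor for further probes of Mbp, Apoe and Gamt. The 11 lists covered myelin, precursor, astrocyte, microglia, neuron, vascular, choroid plexus, blood, creatine, lipoprotein and methyl donor genes. Of their 112 genes, 4 had a named A_51_P probe. These were Mbp (1 of 17 myelin and oligodendrocyte genes), Apoe (1 of 15 astrocyte and 1 of 14 lipoprotein genes), Gamt (1 of 6 creatine and 1 of 10 methyl donor genes) and Chgb (1 of 16 neuron genes). The precursor, microglia, vascular, choroid plexus and blood lists had 0. Whether vesicles of glia were more or less frequent in a sample was therefore not read from other genes of those cells.

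No ethanol difference of Mbp, Apoe or Gamt passed the test. At an adjusted p under 0.05, 0 of the 3 genes passed in limma, as did 0 of 49356 probes (0%), of which 2433 (4.93%) had an unadjusted p under 0.05. With the scan as a block 0 of 3 genes and 0 of 49356 probes (0%) passed, and 4247 probes (8.6%) had an unadjusted p under 0.05. The number of probes with an unadjusted p under 0.05 rested on single arrays. Without the block it was 19008 when ethanol array 4 was left out, 7539 without room air array 9 and 6438 without room air array 5. Leaving out any other array lowered it, to between 596 (without room air array 3) and 1882 (without ethanol array 7). With the block it ran from 2081 without ethanol array 4 to 6149 without ethanol array 7. On all arrays neither fit gave an unadjusted p under 0.05 to Mbp, Apoe or Gamt. The ranges of the groups overlapped for each of the 3 genes, whereas 0.492% of all probes had groups that did not overlap.

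**Figure D1:**
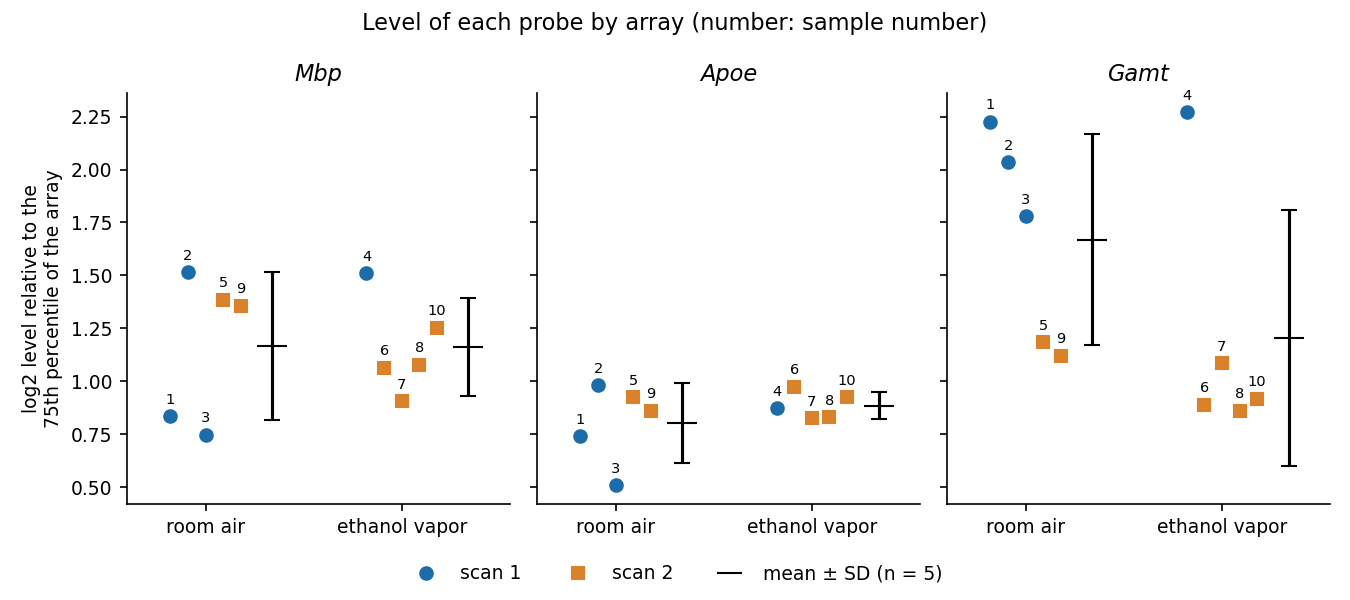
Log2 level above the array's own 75th percentile (vertical axis) for Mbp, Apoe and Gamt in the room air and ethanol vapor groups. Each point is 1 array, labelled by its sample number, blue circles are scan 1, orange squares are scan 2, and the bar is the mean ± SD of 5 arrays. Gamt separates by scan, with 1.78 to 2.27 on scan 1 and 0.86 to 1.18 on scan 2, while Mbp and Apoe do not.

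Mbp, the myelin gene, had nearly equal means in the groups. Room air arrays 1, 2, 3, 5 and 9 read 0.83, 1.51, 0.75, 1.39 and 1.36. Ethanol arrays 4, 6, 7, 8 and 10 read 1.51, 1.06, 0.90, 1.08 and 1.25. The ethanol arrays lay inside the range of the room air arrays, which held both the lowest level (array 3) and the highest (array 2). The means were 1.17 ± 0.35 (SD, n = 5) for the room air arrays against 1.16 ± 0.23 (SD, n = 5) for the ethanol arrays. The difference was -0.0054 (SE 0.23), with a 95% interval from -0.51 to 0.49 and an adjusted p of 0.991 in limma. With the scan as a block it was -0.017 (SE 0.21, adjusted p 0.989 in limma), and that fit's interval ran from 0.719-fold to 1.36-fold.

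Within the scans, Mbp pointed in opposite directions. On scan 1, ethanol array 4 stood beside the highest of 3 room air arrays, and the difference was 0.48 (SE 0.41). On scan 2 the 4 ethanol arrays, 0.90 to 1.25, all lay below both room air arrays, and the difference was -0.30 (SE 0.18, adjusted p 0.687 in limma). Groups on scan 2 did not overlap for 19.7% of all tested probes, so this separation was common. The change of the ethanol difference from scan 1 to scan 2 was -0.77 (SE 0.39) for Mbp, with an adjusted p of 0.821 in limma and an unadjusted p of 0.0719. By that test 0 of 49255 probes (0%) passed, while before adjustment 3106 had a p under 0.05. Other settings called a few probes, none of them Mbp, Apoe or Gamt: 25 without room air array 1, 1 each without room air arrays 2 and 3, 5 with no scaling and 6 with median scaling. Without room air array 2 the Mbp change was -1.02, with an adjusted p of 0.470 and an unadjusted p of 0.00892 in limma. Scan 1 holds 1 ethanol array, which is assumed to vary like the others. Mbp also varied most among room air arrays of scan 1, where its SD was 0.42 (n = 3), against 0.021 for the 2 room air arrays of scan 2.

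Apoe, the lipid carrier, had the smallest SD of the scaled log2 level of the 3 genes. Room air arrays 1, 2, 3, 5 and 9 read 0.74, 0.98, 0.51, 0.92 and 0.86. Ethanol arrays 4, 6, 7, 8 and 10 read 0.87, 0.97, 0.83, 0.83 and 0.92. The ethanol arrays again fell inside the room air range, and the lowest level was that of room air array 3. Means were 0.80 ± 0.19 (SD, n = 5) for the room air arrays against 0.89 ± 0.064 (SD, n = 5) for the ethanol arrays. The difference was 0.082 (SE 0.18), with a 95% interval from -0.31 to 0.47 and an adjusted p of 0.797 in limma. With the scan as a block it was 0.044 (SE 0.14, adjusted p 0.952 in limma), and that fit's interval ran from 0.830-fold to 1.28-fold. The Apoe difference was 0.13 (SE 0.34) on scan 1 and -0.0034 (SE 0.17) on scan 2, and the groups overlapped on both. The change between the scans was -0.13 (SE 0.31, adjusted p 0.952 in limma).

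The SD of Apoe over the 10 arrays was 0.14, and 99.4% of the 49356 tested probes had a higher SD. Among the 35 named and tested A_51_P probes 34 had a higher SD than Apoe. For Mbp the SD was 0.28, exceeded by 26 of 35 named probes and by 88.6% of all tested probes. For Gamt it was 0.58, exceeded by 16 of 35 and by 53.7%. Levels were scaled by each array's 75th percentile, above which the mean level was 1.16 for Mbp, 0.84 for Apoe and 1.44 for Gamt. The part of that scaling in the low SD of Mbp and Apoe was not tested. Ranked among all tested probes of the array, Apoe stood between the 73.4th and the 80.1st percentile, Mbp between the 75.2nd and the 81.8th, and Gamt between the 79.0th and the 84.2nd. The order of the spreads was not kept by that rank, whose SD over the 10 arrays was 1.98 for Gamt, 2.02 for Apoe and 2.30 for Mbp. By rank the scans separated for Apoe, with 73.4 to 76.8 on scan 1 and 77.9 to 80.1 on scan 2. They separated for Gamt too, in the other direction, with 81.6 to 84.2 on scan 1 and 79.0 to 80.6 on scan 2. The share of all probes whose ranks separated by scan was not counted. By scaled level 62% of probes did so.

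**Figure D2:**
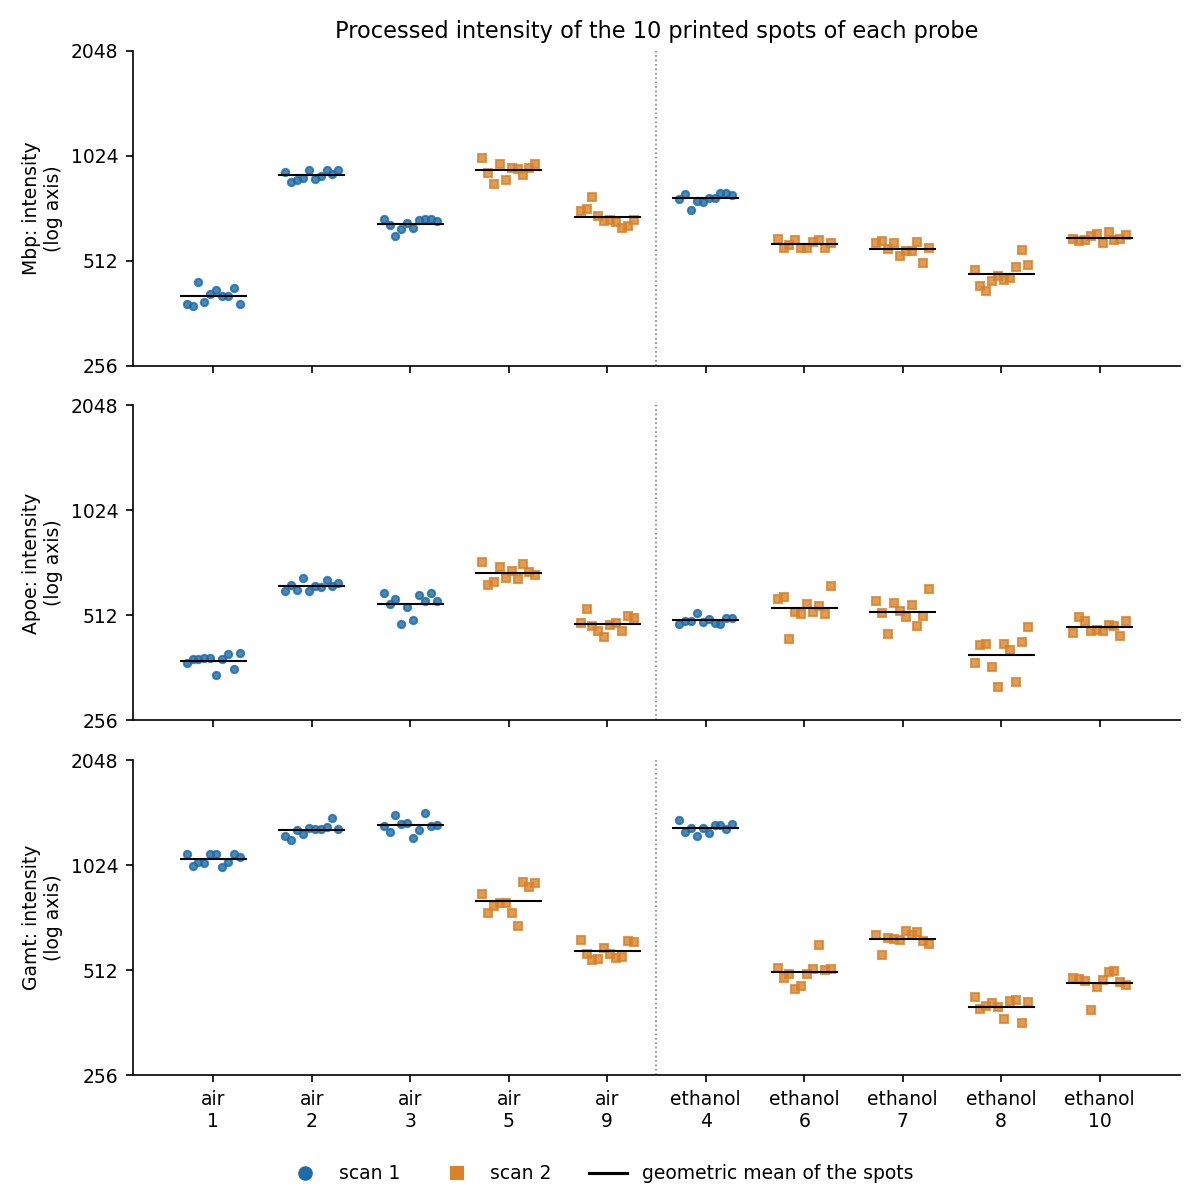
Processed intensity (log axis) of the 10 printed spots of each probe on each array, with room air arrays left and ethanol arrays right of the dotted line, and a black line at the geometric mean of the spots. Spots of an array lie close together beside the steps between arrays: Gamt means run from 402 on ethanol array 8 to 1335 on room air array 3.

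Gamt, the creatine synthesis enzyme, had the lower mean after ethanol and the widest spread of the scaled log2 level. Room air arrays 1, 2, 3, 5 and 9 read 2.23, 2.03, 1.78, 1.18 and 1.12. Ethanol arrays 4, 6, 7, 8 and 10 read 2.27, 0.89, 1.09, 0.86 and 0.92. The 4 arrays of scan 1, of which 3 are room air, were the 4 highest, and the 6 arrays of scan 2 were the lowest. Means were 1.67 ± 0.50 (SD, n = 5) for the room air arrays against 1.20 ± 0.60 (SD, n = 5) for the ethanol arrays. The difference was -0.46 (SE 0.34), or 0.725-fold, with a 95% interval from -1.22 to 0.29 and an adjusted p of 0.529 in limma. With the scan as a block it shrank to -0.045 (SE 0.16, adjusted p 0.956 in limma), and that fit's interval ran from 0.764-fold to 1.23-fold. Without ethanol array 4, the ethanol array of scan 1, the unblocked difference was -0.73 (adjusted p 0.114 and unadjusted p 0.0214 in limma). In that unblocked fit 19008 of 49356 probes had an unadjusted p under 0.05 and 0 were called. All ethanol arrays left in it are from scan 2, while the room air arrays are from both scans. With the block the Gamt difference without array 4 was -0.21.

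Within the scans the Gamt groups separated in opposite directions. Ethanol array 4 was above the 3 room air arrays of scan 1, with a difference of 0.26 (SE 0.34). The 4 ethanol arrays of scan 2, 0.86 to 1.09, were below both room air arrays, with a difference of -0.21 (SE 0.17, adjusted p 0.750 in limma). Such opposite separation was found for 3.78% of tested probes. With 1 ethanol array on scan 1 and 2 room air arrays on scan 2, few arrays set this pattern. The share that the order of so few arrays would give alone was not counted. The change between the scans was -0.47 (SE 0.31) and did not pass, with an adjusted p of 0.865 in limma.

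**Figure D3:**
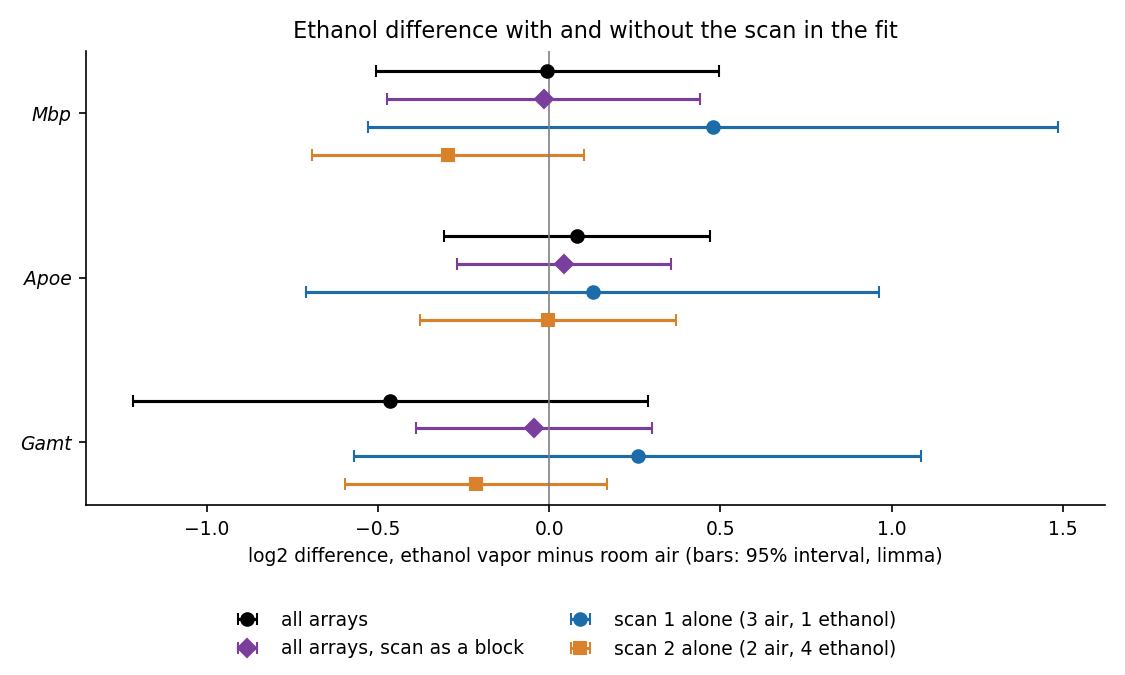
Log2 difference, ethanol vapor minus room air (horizontal axis), for Mbp, Apoe and Gamt over all arrays, with the scan as a block, and within each scan. Bars are 95% intervals from limma. For Gamt the difference moves from -0.46 to -0.045 once the scan is in the fit, and each interval shown includes 0.

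Gamt was the gene of the 3 that differed between the scans. In a fit with group and scan its difference, scan 2 minus scan 1, was -1.05 (SE 0.16, adjusted p 0.000105 in limma), or 0.483-fold with a 95% interval from 0.379 to 0.616. Lower levels on scan 2 at that threshold were found for 18.4% of all tested probes. A scan difference lower than that of Gamt was found for 10.1% of tested probes and for 4 of 35 named probes. In absolute size, 47.1% of tested probes and 14 of 35 named probes had a larger scan difference than Gamt. The absolute scan difference of Mbp was exceeded by 98.5% of tested probes and that of Apoe by 95.1%. For Mbp the scan difference was 0.028 (SE 0.21, adjusted p 0.909 in limma), and for Apoe it was 0.096 (SE 0.15, adjusted p 0.562 in limma). In intensity, before any scaling, Gamt read 1064 to 1335 on scan 1 and 402 to 809 on scan 2, with no overlap. Unscaled Mbp read 406 to 902 on scan 1 and 468 to 930 on scan 2, and Apoe 380 to 623 and 394 to 676, so both overlapped.

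The place of Mbp and Apoe between the scans depended on the scaling, while that of Gamt did not. Over all tested probes the median scan difference was 0.69, and relative to it the differences were -0.66 for Mbp, -0.59 for Apoe and -1.74 for Gamt. With median scaling Mbp and Apoe were called lower on scan 2, by -0.87 and -0.80. With the 75th percentile taken only over probes that passed the background on each array, here called bright probes, both were called higher, by 0.49 and 0.55. Gamt was lower and called under each of the 10 alternatives tried with all arrays, from -1.95 with median scaling to -0.59 with quantile normalization.

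Scaling also set the direction of the unblocked ethanol differences of Mbp and Apoe, while that of Gamt was negative under each of the 5 scalings, from -0.89 with median scaling to -0.20 with the percentile over bright probes. The median difference over all probes was 0.26, -0.17 with median scaling and 0.53 with the percentile over bright probes. Relative to the median probe the unblocked differences were -0.27 for Mbp, -0.18 for Apoe and -0.73 for Gamt. With quantile normalization these were 0.17, 0.24 and -0.26. In the main scaling with the scan as a block they were -0.049, 0.011 and -0.077. The unblocked Mbp and Apoe differences turned to -0.43 and -0.35 with median scaling. They turned to 0.26 and 0.35 with the percentile over bright probes. With the scan as a block, the same scalings gave -0.087 and 0.065 for Mbp, -0.027 and 0.13 for Apoe, and -0.11 and 0.037 for Gamt. None of these values passed the threshold.

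**Figure D4:**
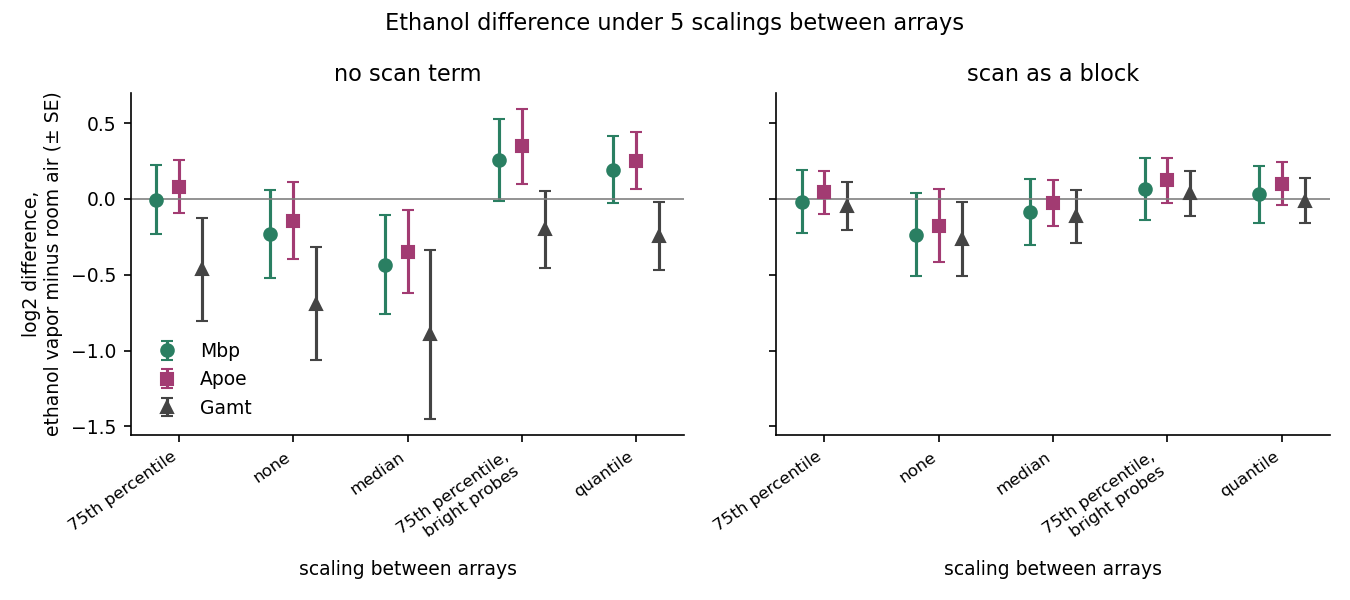
Log2 difference, ethanol vapor minus room air (vertical axis, ± SE), of Mbp, Apoe and Gamt under 5 scalings between arrays, without (left) and with (right) the scan as a block. Without the block the values spread from -0.89 for Gamt to 0.35 for Apoe, and with it from -0.26 to 0.13.

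Array weights, which let limma give less weight to arrays that fit the group means poorly, brought Gamt past the threshold. Its weighted difference was -0.995 (SE 0.19, adjusted p 0.000728 in limma), in a fit that called 34377 probes (69.7%). The 3 lowest of the 10 weights in that fit went to ethanol array 4 (0.138) and room air arrays 9 (0.220) and 5 (0.225), the arrays of the less frequent group on each scan. With array weights and the scan block together, the Gamt difference was -0.14 (SE 0.13, adjusted p 0.634 in limma) and 0 probes (0%) passed. Mbp and Apoe did not pass in either weighted fit.

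The difference between 2 probes of an array is free of any constant scaling, and its change from array to array showed the same division. Mbp minus Gamt was -1.39, -0.52, -1.03 and -0.76 on arrays 1, 2, 3 and 4 of scan 1. On arrays 5, 6, 7, 8, 9 and 10 of scan 2 it was 0.20, 0.18, -0.18, 0.22, 0.24 and 0.34. The scans did not overlap, and their means differed by 1.09. Apoe minus Gamt ran from -1.49 to -1.05 on scan 1 and from -0.26 to 0.086 on scan 2, also without overlap. Its means differed by 1.18. Both pairs hold Gamt, whose own level separated by scan, as did the levels of 62% of all tested probes. The share of all probe pairs that separated by scan was not counted. Mbp minus Apoe overlapped between the scans, with means of 0.38 ± 0.25 (SD, n = 4) and 0.28 ± 0.18 (SD, n = 6). Between groups the 3 differences changed by 0.46, 0.55 and -0.087 after ethanol, and by 0.028, 0.088 and -0.060 with the scan as a block. For each of these pairs the groups overlapped.

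**Figure D5:**
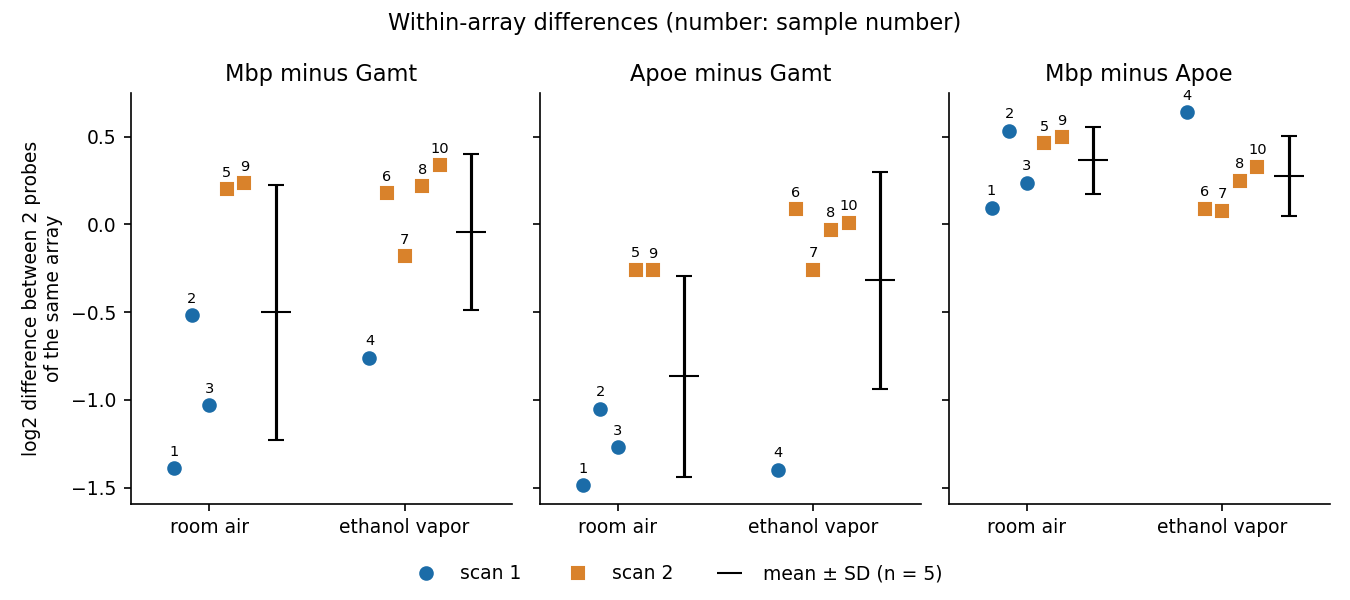
Log2 difference between 2 probes of the same array (vertical axis) for the 3 pairs of genes in room air and ethanol vapor arrays, labelled by sample number, with blue circles for scan 1, orange squares for scan 2 and the mean ± SD of 5 arrays. Both pairs with Gamt divide by scan, reaching at most -0.52 on scan 1 and at least -0.26 on scan 2, and Mbp minus Apoe does not.

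Actb, which encodes the cytoskeletal protein beta-actin, was taken as a housekeeping probe. Its own scan difference was -0.011 (SE 0.16, adjusted p 0.956 in limma). Like Mbp and Apoe, Actb was called lower on scan 2 with median scaling (-0.91) and higher with the percentile over bright probes (0.45). The Gamt minus Actb difference was 1.12 ± 0.19 (SD, n = 4) on scan 1 and 0.092 ± 0.15 (SD, n = 6) on scan 2, with no overlap. This pair too holds the scan difference of Gamt itself. For Mbp minus Actb the means were 0.19 and 0.26, and for Apoe minus Actb they were -0.18 and -0.027, with overlap for both. After ethanol the Mbp, Apoe and Gamt differences to Actb changed by 0.070, 0.16 and -0.39, and with the scan as a block by 0.054, 0.11 and 0.026. Chgb, which encodes the secretory granule protein chromogranin B of neurons and endocrine cells, fell by 0.91 from scan 1 to scan 2 (adjusted p 0.000217 in limma), and by 0.45 to 1.81 under the other scalings tried, each past the threshold. That neuron gene thus moved between the scans in the direction of Gamt. Its ethanol difference with the block was 0.0046 (SE 0.15).

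Printing error was small beside the spread between arrays. The SD between the spots of an array was 0.068 for Mbp, 0.099 for Apoe and 0.085 for Gamt on the log2 scale, pooled over the arrays. Averaged over 10 spots, it left an error of 0.021 for Mbp, 0.031 for Apoe and 0.027 for Gamt. The spread between arrays of the same group and scan was 0.26, 0.15 and 0.15. Spot error accounted for 0.666% of that variance for Mbp, 4.55% for Apoe and 3.28% for Gamt. The noisiest print was Apoe on ethanol array 8, where spots ran from 319 to 475. Spots of 1 array share its RNA and labelling, so they are no replicates of a group.

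Mbp and Apoe were positively correlated across the arrays, and the correlations of Gamt with both were lower. With the scan means taken off, neither was the named gene most like the other. Once the mean of each scan was taken off, the Pearson correlation over the 10 arrays was 0.78 between Mbp and Apoe (0.72 without that step). It was 0.44 between Mbp and Gamt and 0.41 between Apoe and Gamt, and 0.089 and -0.30 without removing the scan means. Among the 35 named probes those most like Mbp were Chgb (0.79), Apoe (0.78) and Prdx2, a peroxiredoxin that breaks down hydrogen peroxide (0.76). Those most like Apoe were Atg3, an enzyme of autophagy (0.80), Mbp (0.78) and Uhrf1bp1l (0.74). Least like both was the olfactory receptor gene Olfr1307, at -0.52 with Mbp and -0.65 with Apoe. Without removing the scan means, Mbp correlated at 0.20 with Chgb, 0.69 with Prdx2 and -0.26 with Olfr1307. Likewise Apoe correlated at 0.59 with Atg3, 0.79 with Uhrf1bp1l and 0.015 with Olfr1307. Gamt was most like Duox1, an oxidase that makes hydrogen peroxide (0.72), Gsdmd, the pore-forming gasdermin D (0.68) and Il2, the T cell growth factor (0.63). It was least like Alkbh4, a demethylase (-0.78). Over the arrays without removal of the scan means, Gamt correlated at 0.98 with Duox1 and -0.98 with Alkbh4. The points share their array, its scaling and its scan, and the correlations are descriptions. The most alike probes were picked by these same correlations, which were not set against those over all tested probes.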

How the data were processed

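Processed spot intensities on a linear scale were deposited by the authors for 10 one-colour Agilent arrays. They were made with Agilent Feature Extraction 11.0.1.1, which, per the file headers, subtracts background and detrends within the array and does not scale between arrays. A value table also deposited by the authors has log2 levels of 60641 probes. It holds 0 of the 3 probes described here and served only for a count of calls. Control and non-uniform spots were left out, log2 intensities were reduced by the 75th percentile of the array over noncontrol spots, and spots of a probe were averaged. Probes well above background (at least 0.5 of their spots) on at least 5 arrays were tested, 49356 in all, with the 3 among them. Only A_51_P probes were given names. These came from accessions through a RefSeq gene table of a later build than the mm9 of the headers, so no coordinates are given. The files hold no probe sequences.

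Differences between groups were tested two-sided by limma's lmFit and eBayes (limma 3.58.1, R 4.3.3), with Benjamini-Hochberg adjustment across the 49356 probes and a threshold of 0.05. The fit has no scan term, since the labels name none. Alternatives were the scan as a block or alone, scalings, normexp, filters, array weights and each array left out. Other genes named are Actb, list members, and the 3 named probes most like and the 1 least like each gene. The genes, lists and tests were chosen with earlier results of these data known. The number of arrays limits the precision.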

Additional observations from a re-analysis of the deposited data

Results flagged for a closer look

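Of 12 groups of 5 values checked, those of the 3 genes and their 3 pairs in each group, 2 had an array far from the others, and chance marks about 1 group in 20. Both involve ethanol array 4, the only ethanol array of scan 1. Its Gamt level of 2.27 lay apart from the other ethanol arrays (0.86 to 1.09) by 0.840 of the whole ethanol range. Its Apoe minus Gamt difference of -1.40 lay apart by 0.767 of the range. The room air arrays of scan 1 read 1.78 to 2.23 for Gamt and -1.49 to -1.05 for Apoe minus Gamt, so array 4 lay just above the arrays of its own scan for Gamt and inside their range for Apoe minus Gamt.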

How the results depend on the processing

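No paired analysis was possible because the sample numbers run across both groups and none is shared. The ethanol differences did not pass the threshold under the alternatives tried, except Gamt with array weights (-0.995), a fit that called 34377 probes. The sign of the Mbp difference turned with the percentile over bright probes (0.26), quantile normalization (0.19), scan 1 alone (0.48), array weights (0.013), and the block with either of those scalings (0.065 and 0.032). That of Apoe turned with no scaling (-0.14), median scaling (-0.35), scan 2 alone (-0.0034), and the block with no scaling (-0.18) or median scaling (-0.027). That of Gamt turned on scan 1 alone (0.26) and with the block over bright probes (0.037). Bright probes are those above background on each array. With 1 array left out, with or without the block, Mbp ran from -0.30 to 0.087, Apoe from -0.0034 to 0.13 and Gamt from -0.73 to 0.030, and 0 probes were called in each of these 20 fits. Mbp turned in 12 of the 20, Apoe turned with the block without ethanol array 4, and Gamt with the block without room air array 5. The Gamt scan difference with 1 array left out ran from -1.14 to -0.86, that of Mbp from -0.085 to 0.34 and that of Apoe from 0.025 to 0.16. With all arrays the Mbp scan difference turned with median scaling (-0.87) and passed with bright probes (0.49), and that of Apoe turned with median scaling (-0.80) and passed with quantile normalization (0.38) and bright probes (0.55). The change of the ethanol difference between scans ran from -1.02 to -0.63 for Mbp, -0.25 to -0.014 for Apoe and -0.58 to -0.36 for Gamt with 1 array left out, and turned for Apoe with bright probes (0.027). The deposited value table holds none of the 3 probes and gave 0 calls, and normexp on the mean signal was not run. The scalings of that change and normexp on the median spot signal were added after seeing the data. The cause was not tested.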
